A study of Mus musculus with 12 samples.

Results

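Genes that carry fatty acids through oxidation, together with targets of the nuclear receptor Ppara, were followed in the livers of mice that had lost either Lkb1 or RbpJk. The set held 33 genes chosen by name for their function: genes of fatty acid activation and the carnitine shuttle, of mitochondrial and peroxisomal beta-oxidation, of ketone body metabolism and of omega-oxidation, and 6 further Ppara targets. Of these, 31 were analysed, among 23185 named genes on the arrays, and Acsl1 and Hadhb were not analysed here. The genes were listed by role and not by a threshold on their values, with earlier results of these data known. Liver RNA was hybridised to 12 arrays, 1 for each mouse, in 4 groups of 3. LKB1 KO mice carried Cre and a liver-specific deletion of Lkb1 (official symbol Stk11), and LKB1 WT mice were their Cre-negative counterparts. RbpJk KO mice carried Cre and a liver-specific deletion of RbpJk (Rbpj by its official symbol), through which Notch receptors bind DNA, and RbpJk WT mice lacked Cre. All 12 mice are labelled male and were killed at the age of 5 days, so each control group differs from its knockout group in the presence of Cre as well. The labels do not name the promoter that drives Cre or the nutritional state at death. Values are log2 expression as deposited, changes are KO minus WT of the same experiment with their SE, and n = 3 arrays per group throughout. A gene was called changed where the adjusted p of limma, corrected over all 23185 genes, was under 0.05.

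Long-chain fatty acids enter mitochondria as carnitine esters, which Cpt1a makes, the carrier Slc25a20 moves inward and Cpt2 turns back into acyl-CoA. A spiral of dehydrogenation, hydration, a further dehydrogenation and thiolysis then shortens the chain, and in liver much of the acetyl-CoA leaves as ketone bodies. Peroxisomes shorten very long chains by a parallel route, and microsomal Cyp4a enzymes oxidise the far (omega) end. Ppara, bound to DNA with its partner Rxra at direct repeats of a hexamer spaced by 1 base, activates genes of all these routes when fatty acids reach the liver, and suckling mice live on a milk rich in fat.

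The windows just upstream of 4 members are shown because the 2 members called in a knockout for which a window was at hand, Ehhadh and Pdk4, can be set beside Fabp1, which holds the closest resemblance to that repeat, and Cd36, 1 of 3 members with the next closest. Of the 31 analysed members 22 matched the RefSeq promoter table by symbol (build GRCm38.p6, 250 bases before and 50 after each start), and Acaa2, Decr1, Hsd17b4, Cyp4a10, Cyp4a14, Cyp4a31, Cyp4a12a, Angptl4 and Vnn1 did not. Each sequence is the 150 bases before the gene's start, 5′ to 3′ on the strand of the gene, with the match in capitals: Fabp1 at chr6:71199729-71199878 on the plus strand, and on the minus strand Cd36 at chr5:17835897-17836046, Ehhadh at chr16:21787835-21787984 and Pdk4 at chr6:5496279-5496428.
Fabp1: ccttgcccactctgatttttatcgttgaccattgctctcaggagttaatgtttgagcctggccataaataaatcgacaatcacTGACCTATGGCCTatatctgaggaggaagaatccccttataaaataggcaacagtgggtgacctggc
Cd36: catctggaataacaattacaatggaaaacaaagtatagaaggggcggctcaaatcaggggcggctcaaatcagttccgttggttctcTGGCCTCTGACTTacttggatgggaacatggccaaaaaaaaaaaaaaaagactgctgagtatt
Ehhadh: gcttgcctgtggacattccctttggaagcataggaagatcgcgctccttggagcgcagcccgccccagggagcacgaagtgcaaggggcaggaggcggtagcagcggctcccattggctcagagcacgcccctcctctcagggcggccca
Pdk4: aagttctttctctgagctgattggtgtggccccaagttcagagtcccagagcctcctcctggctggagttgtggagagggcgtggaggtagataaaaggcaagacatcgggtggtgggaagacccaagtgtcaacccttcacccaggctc
The motif AGGTCANAGGTCA was searched on both strands of the whole window. The capitals in Fabp1 begin 67 bases before the start, read on the opposite strand, and differ from the motif at 1 position, and those in Cd36 begin 63 bases before the start on the opposite strand and differ at 2. With 1 difference allowed, 1 of 22 members and 0.554% of all 32851 windows held a match, and with 2 differences allowed 4 of 22 (Fabp1, Cd36, Etfa and Slc25a20) and 3.86% did. An exact match was found in 0 of 22 members and in 0.0396% of windows. The hexamer AGGTCA, which is contained in that motif, lay on either strand of the windows of 5 of 22 members (Cpt1a, Acadvl, Acadm, Fabp1 and Cd36) and of 16.3% of all windows. Ehhadh and Pdk4 held neither within these windows, which leave out introns and more distant sequence. Of the 4 genes shown, Ehhadh and Pdk4 were called changed in a knockout and Fabp1 and Cd36 were not. This contrast follows in part from how the genes were chosen. The other called members, Cyp4a31 and Angptl4, had no window to search.

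The targeted genes, the tissue and the arrays were checked first. Stk11 fell 1.74-fold in LKB1 KO livers (log2 change -0.80 ± 0.15, limma adjusted p = 0.0224), and Rbpj, whose probe set is dim, had a log2 change of -0.73 ± 0.19 in RbpJk KO livers that did not pass (limma adjusted p = 0.0724). The 10 hepatocyte markers averaged between 11.9 and 12.1 on every array. In LKB1 KO livers 9 of them had negative changes (median -0.09), and 0 passed in limma. For 6 of them all LKB1 KO arrays lay below the controls, as for 8.6% of all genes. The 8 markers of striated muscle averaged 8.17 on RbpJk KO 2 and at most 4.52 on the other 11 arrays, and 7 markers of pancreatic acinar cells averaged 7.46 on RbpJk WT 1 and at most 4.54 elsewhere. Xist, transcribed in female cells, lay above 10 on 6 arrays in spite of the label, namely on every LKB1 WT array, on LKB1 KO 3, and on RbpJk WT 1 and 3. On these 6 arrays the Y-linked gene Eif2s3y lay at 2.94 or below, and on the others at 7.23 or above. Y-linked Uty and Kdm5d divided the arrays in the same way, so these 6 livers read as female and the others as male. Sex thus overlaps largely with genotype, as all LKB1 WT arrays read as female and all RbpJk KO arrays as male. Beside changed genes of the set, values are therefore also given without the arrays concerned or between arrays of the same Xist class. The latter set LKB1 KO 3 alone against the 3 LKB1 WT arrays and the 3 RbpJk KO arrays against RbpJk WT 2 alone. They are given as changes with no test, although that fit is among the alternatives counted below. In LKB1 KO livers all 10 endothelial and all 10 Kupffer cell and macrophage markers had negative changes (medians -0.34 and -0.40), of which 0 passed in limma while 9 and 6 had unadjusted p under 0.05, as had 8.05% of all genes. The macrophage markers Cd5l (0.70, limma adjusted p = 0.0237) and Cd68 (0.57, limma adjusted p = 0.0224) rose in RbpJk KO livers, where Adgre1 fell (-0.44, limma adjusted p = 0.0496), with a median of 0.08 over the 10. All 5 erythroid markers were negative there (median -0.57), and Klf1 passed (-0.66, limma adjusted p = 0.0274). The 10 endothelial markers had a median of 0.07 in RbpJk KO livers, and 0 passed in limma. An unadjusted limma p under 0.05 was found for 1 of them, beside 14.5% of all genes. The part of these cell types in the changes described below was not tested. In these whole livers fewer cells of a type and less RNA per cell cannot be told apart.

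**Figure D1:**
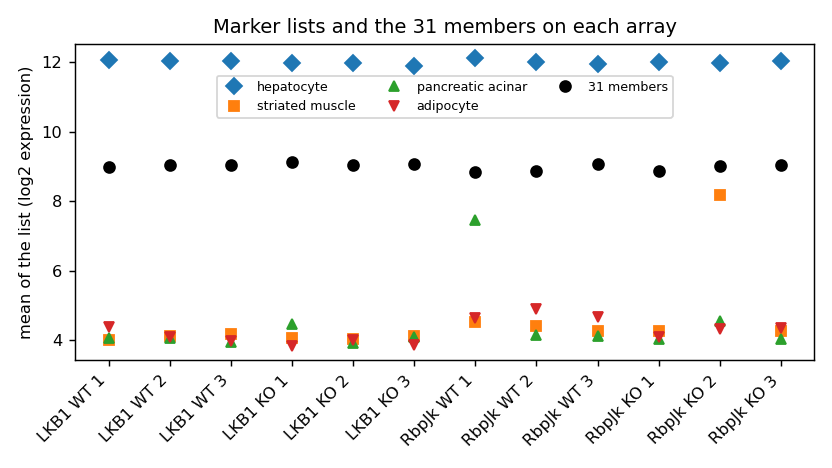
Mean log2 expression of marker lists (coloured symbols) and of the 31 analysed members (black) on each of the 12 arrays. Striated muscle markers reach 8.17 on RbpJk KO 2 and pancreatic acinar markers 7.46 on RbpJk WT 1, while the mean of the members stays between 8.83 and 9.11.

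In LKB1 KO livers the peroxisomal gene Ehhadh rose and the omega-oxidation gene Cyp4a31 fell, each the only member of its role to pass in that knockout, and 0 of 13 mitochondrial beta-oxidation genes passed in limma (1 at an unadjusted p under 0.05). Rises in RbpJk KO livers were those of Pdk4 and Angptl4, which act on fuel choice and lipid uptake rather than within the oxidation spiral. In LKB1 KO livers 1 of 31 members rose, where 0.418% of all genes did, and 1 of 31 fell, where 0.543% did. In RbpJk KO livers 2 of 31 rose, against 1.12% of all genes, and 0 fell, against 0.565%. At an unadjusted limma p under 0.05, 7 of 31 members in LKB1 KO and 9 of 31 in RbpJk KO livers passed in either direction, as did 8.05% and 14.5% of all genes. The median change of the 31 members was 0.08 in LKB1 KO livers (23 positive and 8 negative) and -0.01 in RbpJk KO livers (14 positive and 17 negative), beside medians of -0.01 and -0.03 over all genes.

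**Figure D2:**
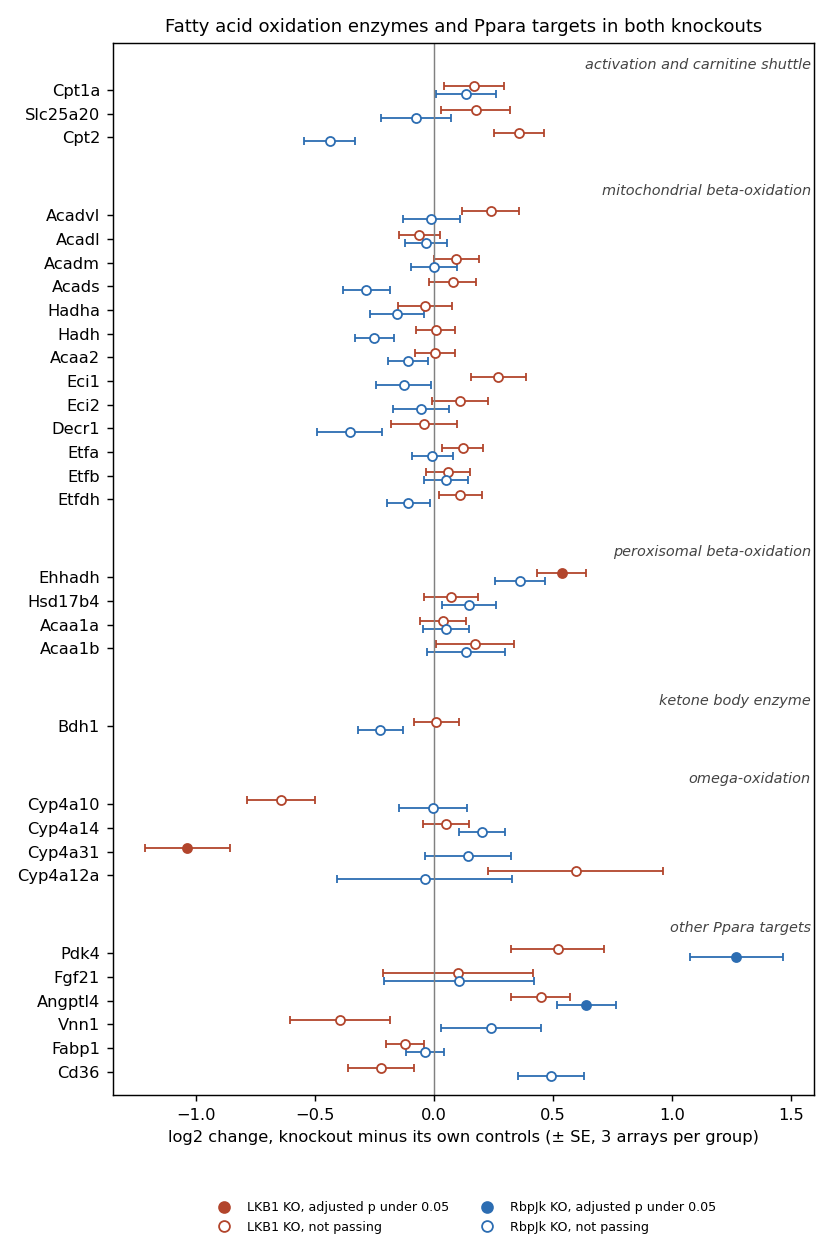
Log2 change of each of the 31 members (± SE, 3 arrays per group) in LKB1 KO (red) and RbpJk KO livers (blue) against their own controls, by role. Filled points passed an adjusted p under 0.05: Ehhadh (0.54) and Cyp4a31 (-1.04) in LKB1 KO, Pdk4 (1.27) and Angptl4 (0.64) in RbpJk KO.

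Without regard to a test, the 3 KO arrays lay above all 3 WT arrays for 5 of 31 members in the LKB1 experiment (Slc25a20, Cpt2, Acadvl, Ehhadh and Angptl4), where 7.77% of all genes did. They lay below for 4 (Acadl, Cyp4a10, Cyp4a31 and Fabp1), where 8.6% did. In the RbpJk experiment the KO arrays lay above for 5 members (Ehhadh, Cyp4a14, Pdk4, Angptl4 and Cd36), beside 8.25% of all genes, and below for 3 (Cpt2, Acads and Hadh), beside 8%. Ehhadh and Angptl4 lay above in both experiments, whose control mice are separate, and Cpt2 lay above in LKB1 KO and below in RbpJk KO livers.

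In the carnitine shuttle, Cpt2 was the member with the greatest change. Cpt2 lay at 9.12, 9.02 and 9.15 in LKB1 WT and at 9.47, 9.35 and 9.54 in LKB1 KO livers. In the RbpJk experiment it lay at 9.46, 9.27 and 9.38 in WT and at 8.70, 9.09 and 9.01 in KO livers. The groups did not overlap in either experiment, with KO arrays higher in the first and lower in the second. The change was 0.36 ± 0.11 in LKB1 KO (adjusted p = 0.197 in limma) and -0.44 ± 0.11 in RbpJk KO livers (adjusted p = 0.055 in limma), neither of which passed. The 2 effects differed by 0.80 ± 0.15 on the log2 scale, with a 95% interval from 0.47 to 1.12 and a limma adjusted p of 0.0536. Without RbpJk KO 2, the array with muscle transcripts, the difference was 0.87 (limma adjusted p = 0.0394) and the change in RbpJk KO livers -0.52 (limma adjusted p = 0.0388), so that both passed. Neither passed when RbpJk WT 1, the array with pancreas transcripts, was left out as well. With each experiment restricted to 1 Xist class, which leaves each 1 group of a single array, the difference was 0.78. That class was high in the LKB1 and low in the RbpJk experiment, so the difference was not held within a class. With Xist class as a covariate the difference was 0.80 (limma adjusted p = 0.0592). Cpt1a, the regulated entry step, had changes of 0.17 ± 0.13 and 0.13 ± 0.13 and Slc25a20 of 0.17 ± 0.15 and -0.07 ± 0.15 in LKB1 KO and RbpJk KO livers, none passing.

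Mitochondrial beta-oxidation was represented by 13 analysed genes, of which 0 passed in either knockout by limma, with 1 in LKB1 KO and 3 in RbpJk KO livers at an unadjusted p under 0.05, a cut that 8.05% and 14.5% of all genes passed. They comprise the acyl-CoA dehydrogenases for very long, long, medium and short chains (Acadvl, Acadl, Acadm and Acads), the trifunctional protein subunit Hadha, the short-chain hydroxyacyl-CoA dehydrogenase Hadh, the thiolase Acaa2, the enzymes that handle double bonds (Eci1, Eci2 and Decr1), and the electron transfer flavoprotein Etfa and Etfb with its dehydrogenase Etfdh. In LKB1 KO livers their changes ran from -0.06 (Acadl) to 0.27 (Eci1) with 10 positive and a median of 0.08. In RbpJk KO livers they ran from -0.35 (Decr1) to 0.05 (Etfb) with 11 negative and a median of -0.11. After centring the arrays on their medians 7 of 13 were negative in RbpJk KO livers, and after quantile normalization all 13 were. Taken gene by gene, the 95% intervals of the 13 stayed between -0.34 and 0.52 in LKB1 KO and between -0.65 and 0.25 in RbpJk KO livers. Each interval holds for its own gene and not for the 13 jointly.

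Decr1, the reductase for unsaturated chains, had the change furthest from 0 among the 13. Its level was 8.52, 8.37 and 8.54 in LKB1 WT, 8.46, 8.30 and 8.54 in LKB1 KO, 8.22, 8.44 and 8.51 in RbpJk WT and 7.69, 8.24 and 8.17 in RbpJk KO livers. RbpJk KO 1 was the lowest array, RbpJk KO 3 lay just below the lowest control, and RbpJk KO 2 lay within the control range. The change of -0.35 ± 0.14 in RbpJk KO livers did not pass (limma adjusted p = 0.246). Acads (-0.28 ± 0.10, limma adjusted p = 0.201) and Hadh (-0.25 ± 0.08, limma adjusted p = 0.165) were the members of this route whose RbpJk KO arrays all lay below the controls. Eci1, an enoyl-CoA isomerase, was the member with an unadjusted p under 0.05 in LKB1 KO livers (0.27 ± 0.12, limma adjusted p = 0.542). Acadm changed by 0.09 ± 0.10 and by 0.00 ± 0.10, and Acaa2 by 0.00 ± 0.08 and by -0.11 ± 0.08, in LKB1 KO and RbpJk KO livers.

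Among 4 peroxisomal genes, Ehhadh rose in LKB1 KO livers. Ehhadh encodes the bifunctional enzyme that hydrates and dehydrogenates enoyl-CoA in peroxisomes and is a classical Ppara target. It lay at 9.38, 9.62 and 9.50 in LKB1 WT and at 9.94, 10.16 and 9.99 in LKB1 KO livers. In RbpJk WT livers it lay at 9.01, 8.91 and 8.84 and in RbpJk KO livers at 9.17, 9.20 and 9.48. All KO arrays exceeded all controls in both experiments. The rise in LKB1 KO livers was 1.45-fold (log2 change 0.54 ± 0.10, limma adjusted p = 0.0254), and the change in RbpJk KO livers was 0.36 ± 0.10 (limma adjusted p = 0.114). The difference between the effects, 0.18 ± 0.15 with a 95% interval from -0.14 to 0.49, did not pass (limma adjusted p = 0.797). Between LKB1 KO 3 and LKB1 WT, arrays of the same Xist class, the change was 0.50, and with Xist class as a covariate 0.52 (limma adjusted p = 0.157). The call was also lost when any of the control arrays LKB1 WT 1 and 3 or of the knockout arrays LKB1 KO 2 and 3 was left out (limma adjusted p from 0.0885 to 0.134), while the change itself stayed between 0.47 and 0.60 under all alternatives.

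The other peroxisomal members had smaller changes. Hsd17b4, the second bifunctional enzyme, changed by 0.07 ± 0.11 and 0.15 ± 0.11, the thiolase gene Acaa1a by 0.04 ± 0.10 and 0.05 ± 0.10 and its close copy Acaa1b by 0.17 ± 0.16 and 0.14 ± 0.16 in LKB1 KO and RbpJk KO livers, none passing. All 4 peroxisomal genes had positive changes in both knockouts, with medians of 0.12 and 0.14. This did not hold under all alternatives. After quantile normalization 3 of 4 were positive in RbpJk KO livers. Acaa1a was negative in LKB1 KO livers without LKB1 WT 2 or LKB1 KO 1, and Acaa1b in RbpJk KO livers without RbpJk KO 3. Probe sets of Acaa1a and Acaa1b may share signal, since the genes are near copies.

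Bdh1, which converts acetoacetate to 3-hydroxybutyrate in mitochondria, was the ketone body enzyme of the set. It lay at 9.996, 10.04 and 9.85 in LKB1 WT and at 9.99, 9.98 and 9.95 in LKB1 KO livers, and the groups overlapped. In the RbpJk experiment it lay at 9.81, 9.97 and 9.97 in WT and at 9.69, 9.52 and 9.86 in KO livers, with RbpJk KO 3 inside the control range. Its changes were 0.01 ± 0.09 and -0.22 ± 0.09 (limma adjusted p = 1 and 0.289).

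Of 4 omega-oxidation genes, Cyp4a31 fell in LKB1 KO livers. Cyp4a enzymes hydroxylate the methyl end of fatty acids, and several are Ppara targets in rodents. Cyp4a31 lay at 10.10, 10.29 and 9.92 in LKB1 WT and at 9.44, 9.09 and 8.67 in LKB1 KO livers. The KO arrays all lay below the controls and were spread over a wider range (SD 0.39 against 0.18). It was at 9.64, 10.06 and 10.19 in RbpJk WT and at 10.21, 9.93 and 10.17 in RbpJk KO livers, which overlapped. The fall in LKB1 KO livers was 2.05-fold (log2 change -1.04 ± 0.18, limma adjusted p = 0.0109), and the change in RbpJk KO livers was 0.14 ± 0.18. The effects differed by -1.18 ± 0.25 (95% interval -1.72 to -0.64), which did not pass (limma adjusted p = 0.0928), and without LKB1 KO 1 the difference was -1.36 (limma adjusted p = 0.0378). LKB1 KO 3, the lowest array, shares the Xist class of the controls, and this single array against the 3 controls gave a change of -1.43, while with Xist class as a covariate over all arrays the change was -1.28 (limma adjusted p = 0.00992). Without LKB1 KO 3 the change was -0.84 (limma adjusted p = 0.0528) and without LKB1 WT 2 it was -0.94 (limma adjusted p = 0.0702).

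Cyp4a10 is described in full as well, a choice made after its values were seen. It lay at 9.93, 10.05 and 9.9999 in LKB1 WT and at 9.44, 9.31 and 9.30 in LKB1 KO livers, without overlap. In RbpJk WT livers it lay at 9.30, 9.07 and 9.23 and in RbpJk KO livers at 9.62, 9.04 and 8.93, where RbpJk KO 1 was above and the other arrays below all controls. The change in LKB1 KO livers was -0.64 ± 0.14 (limma adjusted p = 0.0512) and that in RbpJk KO livers 0.00 ± 0.14. The adjusted p of limma was 0.00337 with the LKB1 arrays fitted alone and 0.00254 without RbpJk KO 1, which enters the shared estimate of the spread, and with Xist class as a covariate it was 0.265 at a change of -0.60. Cyp4a14, a neighbour of the same family, changed by 0.05 ± 0.10 in LKB1 KO and by 0.20 ± 0.10 in RbpJk KO livers. Cyp4a12a, which in adult mice is a male-predominant form, was dim in these livers (group means from 2.59 to 3.84) and changed by 0.60 ± 0.37 and -0.04 ± 0.37. Genes of this family are similar in sequence, all 4 lie on chromosome 4, and the division of signal between their probe sets is uncertain.

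Among the 6 further Ppara targets, Pdk4 rose in RbpJk KO livers. Pdk4 is the kinase that switches off pyruvate dehydrogenase and so spares glucose while fat is burned. It lay at 7.70, 7.77 and 8.32 in RbpJk WT and at 9.38, 8.96 and 9.25 in RbpJk KO livers. In the LKB1 experiment it lay at 8.26, 8.46 and 8.27 in WT and at 8.84, 8.46 and 9.25 in KO livers, where LKB1 KO 2 was within the control range. The rise in RbpJk KO livers was 2.41-fold (log2 change 1.27 ± 0.19, limma adjusted p = 0.00347). It passed under 23 of 23 alternatives, from 1.16 to 1.55. RbpJk KO 2, the array with muscle transcripts, was the lowest of the KO arrays, and without it the change was 1.39. The change in LKB1 KO livers, 0.52 ± 0.19, did not pass (limma adjusted p = 0.402), nor did the difference between the effects, -0.75 ± 0.27 (95% interval -1.34 to -0.16, limma adjusted p = 0.401).

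Angptl4, a secreted inhibitor of lipoprotein lipase, also rose in RbpJk KO livers. It lay at 7.22, 7.58 and 7.45 in RbpJk WT and at 7.96, 8.05 and 8.16 in RbpJk KO livers. In LKB1 WT livers it lay at 7.79, 8.03 and 7.68 and in LKB1 KO livers at 8.28, 8.16 and 8.41. Every KO array exceeded every control in each experiment. The rise in RbpJk KO livers was 1.56-fold (log2 change 0.64 ± 0.12, limma adjusted p = 0.0172), and the change in LKB1 KO livers was 0.45 ± 0.12 (limma adjusted p = 0.148). The effects differed by -0.19 ± 0.18, with a 95% interval from -0.57 to 0.19 (limma adjusted p = 0.82). RbpJk WT 1, on which pancreatic transcripts were found, had the lowest Angptl4 of all 12 arrays, and without it the change in RbpJk KO livers was 0.54 (limma adjusted p = 0.053). Without RbpJk KO 3 it was 0.59 (limma adjusted p = 0.0818), with Xist class as a covariate 0.62 (limma adjusted p = 0.115), and against RbpJk WT 2, the only control array of the same Xist class, it was 0.47. Angptl4 is also expressed by adipocytes. Of 7 adipocyte markers 0 passed in RbpJk KO livers by limma and 5 had negative changes, with a median of -0.40. An unadjusted limma p under 0.05 was found for 4 (Adipoq, Plin1, Retn and Car3), beside 14.5% of all genes. Adipoq lay between 2.67 and 3.56 on all arrays, while Car3, which hepatocytes also express, ran from 5.64 to 10.25, with a change of -1.83 ± 0.58 in RbpJk KO livers and a difference of -2.25 ± 0.58 between LKB1 WT and RbpJk WT. The part of adipocyte RNA in the change of Angptl4 was not tested.

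**Figure D3:**
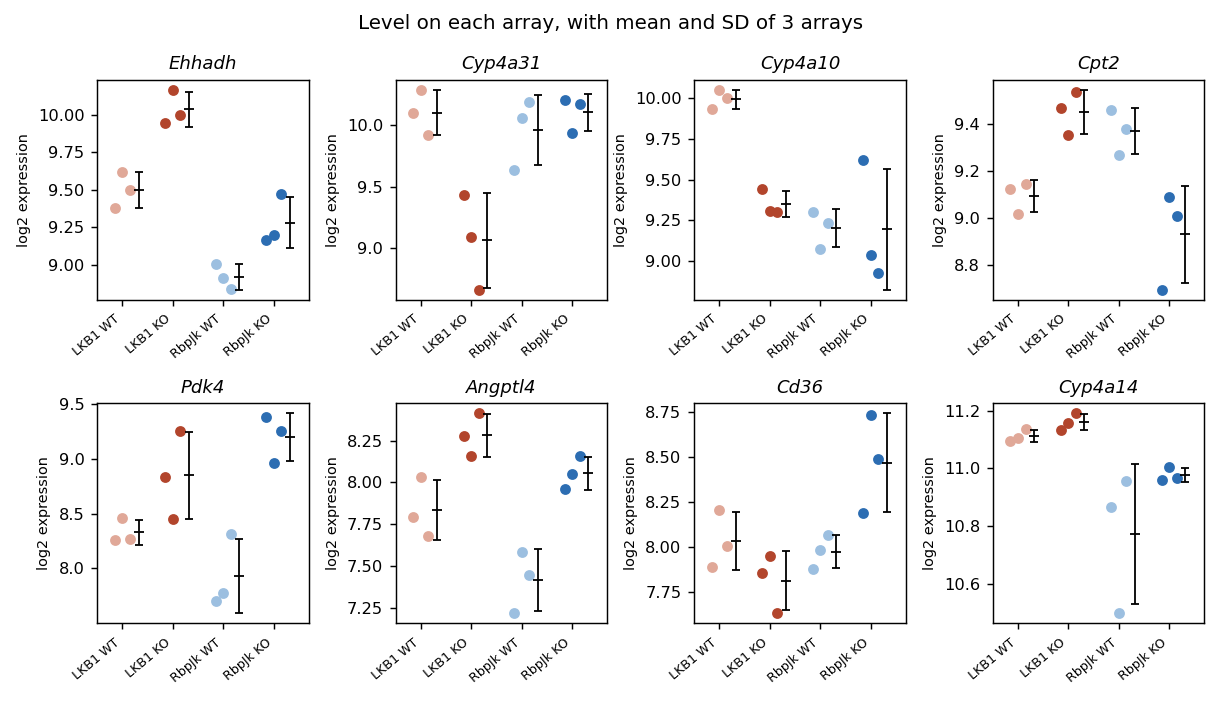
Log2 expression of 8 members on each array (points, 3 per group), with the group mean and SD as black bars and a separate vertical scale for each gene. On these arrays Cpt2 is higher in LKB1 KO and lower in RbpJk KO livers than in their controls. Ehhadh and Angptl4 are higher in both knockouts, and Cyp4a31 and Cyp4a10 are lower in LKB1 KO livers. Of these changes, only Ehhadh and Cyp4a31 in LKB1 KO and Angptl4 in RbpJk KO livers passed an adjusted p under 0.05 in limma.

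The 4 remaining targets did not pass in either knockout. Cd36, a fatty acid translocase of the cell surface, had a change of 0.49 ± 0.14 in RbpJk KO livers (limma adjusted p = 0.104) and of -0.22 ± 0.14 in LKB1 KO livers (limma adjusted p = 0.829). Its highest array was RbpJk KO 2, at 8.73, and without it the change was 0.36 (limma adjusted p = 0.282), while without RbpJk KO 1 it was 0.63 and passed (limma adjusted p = 0.0386). Fabp1, the abundant fatty acid binding protein of liver, lay between 11.73 and 12.05 on all arrays and changed by -0.12 ± 0.08 and -0.04 ± 0.08. Vnn1, a pantetheinase, changed by -0.39 ± 0.21 and 0.24 ± 0.21, and Fgf21, a hormone that liver secretes in fasting, by 0.10 ± 0.31 and 0.11 ± 0.31, with the widest spread among these 6 genes.

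When the difference between the knockout effects was tested, 0 of 31 members passed in limma, beside 0.181% of all genes, and 8 had an unadjusted p under 0.05, as had 9.13% of all genes. Within the set, direction differed by role. Of 13 mitochondrial genes 12 had a more positive change in LKB1 KO than in RbpJk KO livers. All 6 further Ppara targets had a more negative one, with Fgf21 near 0 (-0.004 ± 0.45). For the mitochondrial genes the median difference was 0.16 and for the 6 targets -0.41, beside 0.01 over all genes. Larger lists of such genes, described below, did not divide in this way. Of 26 other Ppara targets 13 were more positive and 13 more negative in LKB1 KO livers (median -0.0007). Of 35 other oxidation and ketone enzymes 13 were more positive and 22 more negative (median -0.06). Between arrays of the same Xist class 8 of 13 mitochondrial genes and 4 of 6 targets had these directions, and with the muscle and pancreas arrays left out 12 of 13 and 4 of 6 did. Genes within a role are measured on the same mice, so these counts are not of independent observations.

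The control groups, which carry no deletion, were not equal for this set. In LKB1 WT livers 2 of 31 members were higher than in RbpJk WT livers, beside 0.367% of all genes, and 0 were lower, beside 0.332%. The 2 genes were Ehhadh (0.58 ± 0.10, limma adjusted p = 0.018) and Cyp4a10 (0.79 ± 0.14, limma adjusted p = 0.0178), and both calls were lost without LKB1 WT 2 (limma adjusted p = 0.115 and 0.0921), LKB1 WT 3 (limma adjusted p = 0.0839 and 0.0834) or RbpJk WT 2 (limma adjusted p = 0.0545 and 0.0766). For Ehhadh the RbpJk KO mean (9.28) thereby stayed below the LKB1 WT mean (9.50), and for Cyp4a10 the LKB1 KO mean (9.35) remained above both RbpJk groups (9.20 each). Fgf21 had a control difference of -1.12 ± 0.31 (limma adjusted p = 0.143). The origin of the control difference was not tested, and strain, litter and array batch cannot be told apart from the experiment. RbpJk WT 2 also differed from the other control arrays in Xist class. With that class as a covariate Ehhadh and Cyp4a10 passed (limma adjusted p = 0.0402 and 0.046). With no intensity trend in the variance model Ehhadh did not pass (limma adjusted p = 0.065).

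Beyond the set, further genes of the pathway were examined in 3 lists, and called genes were rerun under 23 alternatives. Among 35 other oxidation and ketone enzymes, 1 fell in LKB1 KO livers, where 0.543% of all genes did. This was Hacl1, which cleaves 2-hydroxy acyl-CoA in peroxisomes (-0.52 ± 0.11, limma adjusted p = 0.0481). In RbpJk KO livers 1 rose, beside 1.12% of all genes, and 1 fell, beside 0.565%. The acyl-CoA synthetase Acsl4 rose (0.71 ± 0.16, limma adjusted p = 0.0393). Acat1, a thiolase that joins acetyl-CoA units on the way to ketone bodies, fell (-0.47 ± 0.10, limma adjusted p = 0.0219). Under the alternatives Hacl1 passed in 8 of 23, Acsl4 in 10 and Acat1 in 15, without a change of sign. The median changes of the 35 genes were -0.11 and 0.03 in LKB1 KO and RbpJk KO livers.

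Other Ppara targets outside the oxidation spiral held most of the called genes. Among 26 analysed, 4 rose and 0 fell in LKB1 KO livers, beside 0.418% and 0.543% of all genes. These were the acyl-CoA thioesterases Acot1 (1.05 ± 0.20, limma adjusted p = 0.0229) and Acot2 (0.97 ± 0.17, limma adjusted p = 0.0122), near copies that may share signal, the lipid droplet protein Plin5 (0.74 ± 0.14, limma adjusted p = 0.0244) and the retinol saturase Retsat (0.75 ± 0.11, limma adjusted p = 0.00266). In RbpJk KO livers 6 rose and 1 fell, beside 1.12% and 0.565% of all genes. The rises were those of the lipid droplet proteins Cidec (1.92 ± 0.21, limma adjusted p = 0.000345) and Plin2 (0.80 ± 0.10, limma adjusted p = 0.000518), of Txnip, an inhibitor of thioredoxin (1.06 ± 0.10, limma adjusted p = 0.000138), of the mitochondrial carrier Slc25a34 (0.93 ± 0.17), of Acot2 (0.83 ± 0.17) and of the triglyceride lipase Pnpla2 (0.58 ± 0.12). The monoglyceride lipase Mgll fell (-0.65 ± 0.13, limma adjusted p = 0.0239). Acot2 was called in both knockouts, and for it the effects differed by 0.14 ± 0.24. Txnip was called for the difference between the effects (-1.03 ± 0.15, limma adjusted p = 0.0109), with a change of 0.03 ± 0.10 in LKB1 KO livers, and that call held in 21 of 22 alternatives. Retsat in LKB1 KO and Cidec, Plin2 and Txnip in RbpJk KO livers passed under all 23 alternatives, the other calls of this list in 15 to 19 of them. With Xist class as a covariate Acot1, Acot2 and Plin5 did not pass in LKB1 KO livers, and Acot2, Slc25a34, Pnpla2 and Mgll did not pass in RbpJk KO livers. The median changes of the 26 genes were 0.14 and 0.18.

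**Figure D4:**
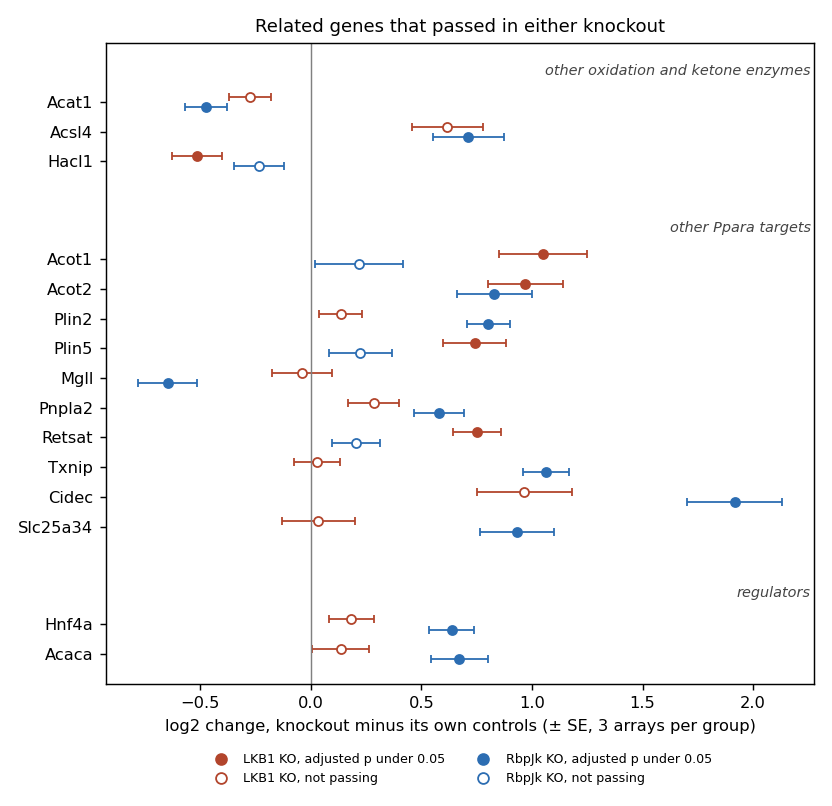
Log2 change (± SE, 3 arrays per group) in LKB1 KO (red) and RbpJk KO livers (blue) of the genes of the 3 related lists that passed in either knockout (filled). Cidec has the greatest rise (1.92 in RbpJk KO), Acot2 is filled in both, and Acat1, Hacl1 and Mgll are the filled points below 0.

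Among 26 regulators, 0 passed in LKB1 KO livers by limma, with 4 at an unadjusted p under 0.05 (8.05% over all genes). In RbpJk KO livers 2 rose (1.12% over all genes). Those were Hnf4a, a nuclear receptor of hepatocytes (0.64 ± 0.10, limma adjusted p = 0.00475), and Acaca, which makes the malonyl-CoA that restrains Cpt1a (0.67 ± 0.13, limma adjusted p = 0.0165). The first passed under all 23 alternatives and the second under 16. Ppara itself lay at 7.89, 8.20 and 7.98 in LKB1 WT and at 7.47, 7.68 and 7.48 in LKB1 KO livers. The KO arrays were all lower, and the change of -0.48 ± 0.14 did not pass (limma adjusted p = 0.16). In RbpJk KO livers Ppara changed by -0.22 ± 0.14 (limma adjusted p = 0.484). Its partner Rxra changed by -0.02 ± 0.12 and 0.10 ± 0.12, and the coactivator Ppargc1a by 0.45 ± 0.19 and -0.36 ± 0.19, none of which passed.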

How the data were processed

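Liver RNA of 12 mice was profiled on 12 Affymetrix whole-transcript arrays (4 groups of 3, by genotype and Cre in the labels), which the study's array methods call Mouse Gene 2.0 ST. The authors deposited log2 values, 1 for each probe set, that ran from 1.18 to 13.0, and their array medians were 4.84 to 5.01. The submitters' processing notes name Partek. Background correction, summarisation, normalization and detection are not given in the sources used, so dim genes may show compressed changes. The platform annotation gave a single symbol to 23185 of 25206 probe sets, and the Entrez number of each row gave the same symbol in the RefSeq table (GRCm38.p6). Values were used as deposited.

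A group-means model over all 12 arrays was fitted with limma 3.58.1 in R 4.3.3 (lmFit, contrasts.fit, eBayes with an intensity trend, 8 residual and 5.88 prior degrees of freedom), and p-values were adjusted by Benjamini-Hochberg over 23185 genes, with a threshold of 0.05. The code was tested on simulated data. Precision is limited by the 3 arrays of each group, and as nothing more than a code per mouse describes the replicates, p-values measure the spread between these samples. Replicate numbers follow the order of entry and only name an array, no pair of arrays of a group was identical, and the labels give no batch.

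All 31 analysed members are named by role. Values on each array are given for members called in a knockout or for the difference, and otherwise for the member of a role with the greatest change. Of the related lists, up to 6 called genes per knockout are named, with Ppara, Rxra and Ppargc1a. Mgll, the 7th by p, was added after its value was seen. Of 166 other listed genes 17 were not analysed here. The members and lists were chosen with earlier results of these data known. Alternatives were each experiment alone, other variance models, array weights, quantile normalization, median centring, a filter on dim genes, all probe sets, Xist class (set at a log2 level of 8) as a covariate or held equal, and leaving out each array. Leaving out the arrays with muscle and pancreas transcripts together was added after the data were seen.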

Additional observations from a re-analysis of the deposited data

Results flagged for a closer look

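Cpt2 is listed because its KO arrays lay wholly above the controls in the LKB1 experiment and wholly below them in the RbpJk experiment. The 2 effects differed by 0.80 ± 0.15 on the log2 scale, and the test of this difference did not pass (limma adjusted p = 0.0536), although it passed with array weights (0.79, adjusted p = 0.043 in limma), after quantile normalization (0.86, limma adjusted p = 0.0147), with dim genes left out (limma adjusted p = 0.0327) and without RbpJk KO 2 (limma adjusted p = 0.0394). The test did not pass under the other variance models, after median centring or with all probe sets. Nor did it pass with any other single array left out or with the muscle and pancreas arrays left out together. With Xist class as a covariate the limma adjusted p was 0.0592. The RbpJk KO arrays were spread from 8.70 to 9.09, and the LKB1 KO arrays from 9.35 to 9.54.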

How the results depend on the processing

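The rise of Pdk4 in RbpJk KO livers passed under 23 of 23 alternatives, that of Angptl4 under 17, the fall of Cyp4a31 in LKB1 KO livers under 21 and the rise of Ehhadh under 16 of 23, and 0 of these changes reversed. Many of these alternatives leave the change itself as it was and alter only its test, so they could not reverse it. They are each experiment alone, other variance models, the filter on dim genes, all probe sets and leaving out arrays of the other experiment. In LKB1 KO livers 2 members were called. The count was 1 without an intensity trend and 1 with Xist class as a covariate (Cyp4a31 each time), 4 with array weights (Cyp4a10 and Angptl4 added), and 0 to 3 when single arrays were left out, with 0 without LKB1 KO 3. In RbpJk KO livers the count of 2 became 1 (Pdk4) with the arms fitted alone, 1 with Xist class as a covariate, 1 with the muscle and pancreas arrays left out, and 1 to 3 without single arrays, with 1 without RbpJk WT 1 or RbpJk KO 3. For the difference between the effects the count of 0 became 1 (Cpt2) with array weights, 1 after quantile normalization and 1 with dim genes left out, and 0 to 1 without single arrays, with 1 without LKB1 KO 1 (Cyp4a31) or RbpJk KO 2 (Cpt2). For the controls the count of 2 became 1 without an intensity trend and 0 to 2 without single arrays. It was 0 without LKB1 WT 2, LKB1 WT 3 or RbpJk WT 2. Within 1 Xist class LKB1 KO and RbpJk WT are single arrays, which were assumed to vary like the other groups. That fit is included in the counts of alternatives passed. The cause of these shifts was not tested. No paired analysis was possible because the labels give the arrays no shared replicate number. With 3 arrays per group and no detection calls, small changes of dim genes such as Cyp4a12a were not resolved.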
